A study of Mus musculus with 6 samples.

Results

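The C-type lectin genes examined here are those whose symbol begins with Clec and a digit, the Cd209 genes a to g, and Cd207; Clec7a was left out by the rule. They number 41 of the 55421 genes in the deposited tables, and 2 of them, Clec2f and Clec2j, are annotated as pseudogenes. RNA-seq had been performed on the cerebral cortex of WT C57BL/6J males, 3 of 6 months (Cx-6, mice 10, 11 and 17) and 3 of 24 months (Cx-24, mice 2, 4 and 5), all taken under isoflurane anesthesia, with libraries made from 10 ng of RNA. The question was how the levels of these genes compare between the ages.

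C-type lectin receptors are cell surface proteins that bind carbohydrates, lipids or other proteins through a shared fold. On dendritic cells and macrophages many of them take up microbes or signal through adaptors with an activating motif, such as Fcer1g and Tyrobp, to the kinase Syk; others carry inhibitory motifs that recruit phosphatases such as Ptpn6. The Clec2 proteins are ligands of Klrb1 receptors of natural killer (NK) cells and are encoded beside them in the NK gene complex. Some genes that carry the name encode secreted or cytoplasmic proteins with no such role.

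Total counts lay between 29495379 and 36494240 per library. Counts were scaled by TMM and tested with edgeR's quasi-likelihood test on genes with a summed count of at least 10, and p-values were adjusted over these genes by the Benjamini-Hochberg method (FDR). All log2 fold changes are for 24 against 6 months. Their median was 0.15 over the 32905 genes tested and -0.12 over genes of a mean TPM (a level per transcript length, scaled alike in every library) of at least 1; scaling by library totals moved these medians to 0.33 and 0.07. Sensory receptor genes (Olfr, Vmn1r, Vmn2r, Tas1r, Tas2r and Taar, 1546 genes), most of which are not known for a role in the cortex, had a density of 0.0238 ± 0.00138 CPM (counts scaled to library size) per kb of exon in Cx-6 and 0.0703 ± 0.0163 in Cx-24 (mean ± SD, n = 3), a ratio of 2.95. This density is given beside genes of few counts, and its part in their differences was not tested. The 8 neuronal markers, which define the labelled tissue, were all detected. They summed to 10384, 9123 and 8909 CPM in Cx-6 and to 6569, 7595 and 8692 CPM in Cx-24 with no overlap under TMM scaling. Divided by library totals, the same counts overlapped between the ages. The median log2 fold change of the 8 was -0.28 with TMM and -0.09 with library totals. At unadjusted p under 0.05, 3 of the 8 were lower, where 13.1% of all genes and 23.0% of those of at least 1 TPM were. The part of these lower values in those that follow was not tested. In bulk tissue, fewer cells of a type and less RNA per cell cannot be told apart.

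The 41 genes differed widely in level. Mean TPM over the 6 libraries ranged from 0.0484 (Clec4a4) to 27.2 (Clec2l), 15 genes reached 1 TPM, and 31 had a count in all 6 libraries. A 6-month library had no read for 10 genes and a 24-month library for 2. Clec4a4 (counts of 1, 0 and 0 against 0, 0 and 1) and Clec3a (1, 0 and 1 against 1, 3 and 0) were too low to be tested. The mean level per kb was above the sensory receptor density for 35 genes at 6 months and 34 at 24 months, and above it in all 6 libraries for 21.

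**Figure D1:**
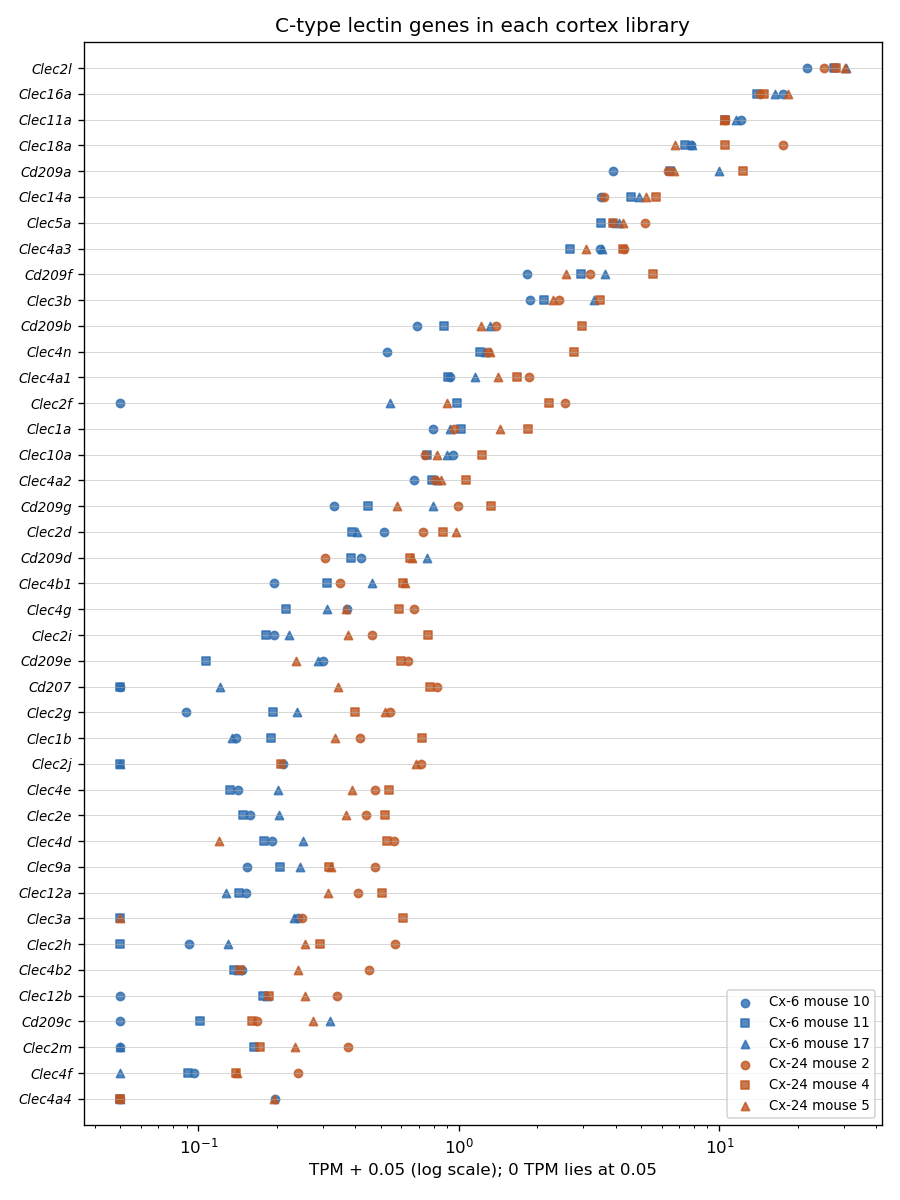
TPM of the 41 genes in each library (x axis, log scale, with a small constant added so that 0 can be drawn), 1 row per gene in order of mean TPM, blue for 6 months and orange for 24 months. The libraries of both ages overlap in the upper rows, from Clec2l (27.2 TPM) to Clec14a (4.54 TPM), while several genes of the lower rows lie further right at 24 months.

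Of the 39 genes tested, 0 passed 1% FDR with the quasi-likelihood test, which called 0.00% of all genes, and the smallest adjusted p was 0.0519 (Clec12a). At an unadjusted p under 0.05, 10 of 39 were higher at 24 months against a background of 17.6% of all genes, and 0 were lower against a background of 13.1%. At 10% FDR 8 of 39 were called, all higher, where 18.4% of all genes were called and 10.0% were called as higher. The count at 10% FDR was 0 when mouse 10, 11, 2 or 4 was left out, 4 without mouse 17 and 12 without mouse 5; it was 3 with DESeq2, 3 with edgeR's filterByExpr and 0 after the sensory receptor density had been subtracted. The likelihood ratio test of edgeR called 5 genes at 1% FDR (Cd207, Clec4e, Clec12a, Clec1b and Clec2h; background 5.18%), the exact test of edgeR called 4 (background 3.41%) and the Wald test of DESeq2 called 0 (background 1.30%). All 24-month libraries lay above all 6-month libraries for 12 genes (background 20.0%) and below them for 1, Clec11a (background 16.2%). The median log2 fold change of the 39 genes was 0.85, or 1.05 with library totals.

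The counts of higher genes went with the level of the genes. Below 1 TPM, 9 of 24 tested genes were higher at unadjusted p under 0.05 (37.5%), as were 34.7% of all 14286 genes of that level, and 0 of 24 were lower, as were 0.217% of those genes; the medians were 1.12 and 1.09. At that level 8 of 24 were called as higher at 10% FDR, where 20.0% of all such genes were. All 24-month libraries lay above all 6-month libraries for 11 of 24, where this held for 38.0% of all such genes. Several genes reached the test largely through their 24-month counts: 7 had fewer than 5 counts over the 3 libraries of 6 months. At 1 TPM or more, 1 of 15 was higher (the pseudogene Clec2f), as were 4.45% of all 18619 genes of that level. In contrast, 0 of 15 were lower, while 23.0% of those genes were. The median of the 15 was 0.21, against -0.12 for all genes of that level.

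**Figure D2:**
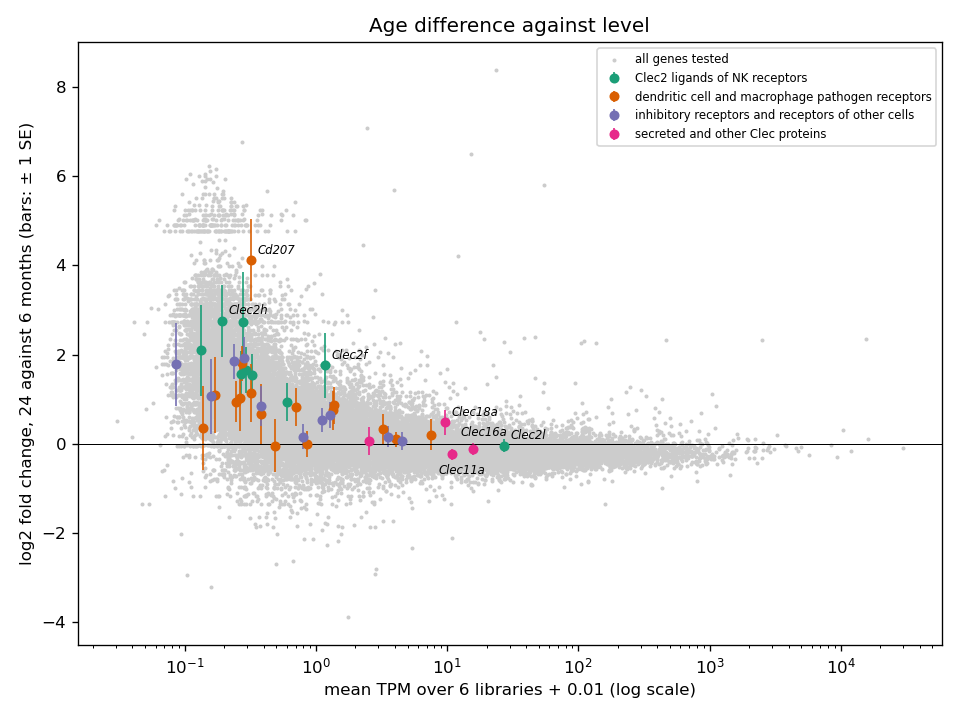
Log2 fold change of 24 against 6 months (y axis, bars ± 1 SE) against mean TPM over the 6 libraries (x axis, log scale) for the 39 genes tested, coloured by role, over all 32905 genes tested in grey. The C-type lectin genes above 4 TPM lie between -0.23 and 0.48, and the values spread upwards below 1 TPM for the grey genes as well.

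Cd207 encodes langerin, an endocytic receptor of Langerhans cells and some dendritic cells that binds mannose-rich glycans and forms Birbeck granules. The study named it among genes up-regulated in these libraries, so its values are a description and no independent evidence. The gene (ENSMUSG00000034783.7, chr6:83671215-83677857 of GRCm38, minus strand, 1522 exonic bases) lies beside Clec4f, the receptor of liver Kupffer cells. Reads of Cd207 numbered 0, 0 and 1 in mice 10, 11 and 17 of 6 months, against 10, 10 and 4 in mice 2, 4 and 5 of 24 months. The ages did not overlap, but every value was at most 10 reads. The ratio of the pooled, scaled counts was 23.3, with a 95% interval of 3.80 to 958.0 that covers counting error only. In TPM the level was 0.0236 ± 0.0408 at 6 months and 0.596 ± 0.263 at 24 months (SD, n = 3). Cd207 passed the filter on summed counts through its 24-month reads (24, against 1 at 6 months), so its fit and p-values are a description only. The fitted log2 fold change, which depends on the prior count for a gene this low, was 4.11 (SE 0.92, adjusted p = 0.0526), and the likelihood ratio test gave an adjusted p of 0.000758. The log2 fold change ranged from 3.67 without mouse 11 to 6.01 without mouse 17, after which no 6-month read was left. At the sensory receptor density a gene of this length would have had 1.05, 1.27 and 1.25 counts in Cx-6 against 4.23, 3.79 and 2.76 in Cx-24. Cd207 thus lay below that density in all 6-month libraries, and its mean level per kb was 2.23 times it at 24 months. After that density was subtracted from each count, with results below 0 set to 0, Cd207 kept no 6-month read. The log2 fold change was then 5.14 and the unadjusted p in the same test 0.0148, which does not test the part of that density. Clec4f, next to it, had 1, 1 and 0 counts against 4, 2 and 2, below the density in all 6 libraries.

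Langerhans and dendritic cell markers did not move as 1 block. Over 12 markers the summed level was 64.9 to 71.7 CPM at 6 months and 61.6 to 62.5 CPM at 24 months, lower with no overlap under TMM scaling. Divided by library totals, the same counts overlapped between the ages. Much of that sum came from Zbtb46, so it does not describe the 12 as a set. Zbtb46 gave 1011, 1212 and 1274 of 2001, 2384 and 2347 counts at 6 months. At 24 months it gave 1070, 956 and 807 of 1999, 2163 and 2099. Of the 12, 4 were higher and 2 lower at unadjusted p under 0.05, where 17.6% and 13.1% of all genes were. Under 1 TPM, 34.7% of all genes were higher. Of the 12 markers, 0 had 0 reads in every library. Itgax, which encodes the integrin CD11c of dendritic and other myeloid cells, had 4, 5 and 5 counts against 15, 18 and 15 (log2 fold change 1.71, adjusted p = 0.0518). Itgae, the integrin CD103, had 5, 7 and 10 counts against 24, 14 and 16 (1.25, adjusted p = 0.0822). The lower markers were Cd24a, a surface glycoprotein of many cell types, with 61, 88 and 72 counts against 43, 65 and 32 (log2 fold change -0.70, adjusted p = 0.111), and Zbtb46, a transcription factor of classical dendritic cells that endothelium expresses too, with 1011, 1212 and 1274 against 1070, 956 and 807 (-0.34, adjusted p = 0.125). Epcam, an adhesion molecule of Langerhans cells, had 4, 6 and 4 counts against 14, 8 and 4, and the ages overlapped. Itgax, Itgae and Epcam were picked after their values were seen.

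Promoter sequences of 33 of the 41 genes were in the RefSeq table for GRCm38.p6. The 250 bases before the start site are shown for 3 of them: Cd207, which has the highest fitted value; Clec12a, which has the smallest p; and Clec2l, which has the highest level. They lie at chr6:83677858-83678107 (minus strand), chr6:129349994-129350243 (plus strand) and chr6:38662819-38663068 (plus strand). The RefSeq start of Clec12a lies 7553 bases inside the gene as GENCODE places it, while the starts of Cd207 and Clec2l are the same in both. Capitals mark TGACTCA, the AP-1 motif, which is its own partner on the other strand apart from its middle base.
Cd207: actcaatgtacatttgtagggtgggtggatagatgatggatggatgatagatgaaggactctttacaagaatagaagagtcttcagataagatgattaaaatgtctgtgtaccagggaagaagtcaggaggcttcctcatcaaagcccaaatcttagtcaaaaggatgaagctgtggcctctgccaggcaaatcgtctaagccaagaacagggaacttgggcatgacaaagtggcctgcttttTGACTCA
Clec12a: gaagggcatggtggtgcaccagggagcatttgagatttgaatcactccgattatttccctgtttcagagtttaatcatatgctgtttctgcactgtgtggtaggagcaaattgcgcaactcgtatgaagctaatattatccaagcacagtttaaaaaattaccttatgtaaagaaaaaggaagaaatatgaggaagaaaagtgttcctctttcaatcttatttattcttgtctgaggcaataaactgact
Clec2l: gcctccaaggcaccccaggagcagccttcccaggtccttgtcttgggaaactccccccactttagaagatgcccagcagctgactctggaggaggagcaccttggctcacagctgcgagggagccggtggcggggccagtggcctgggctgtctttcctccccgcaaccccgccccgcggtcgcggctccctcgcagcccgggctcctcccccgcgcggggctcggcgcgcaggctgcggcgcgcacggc
The Cd207 promoter ends in TGACTCA and had 43.6% GC with 1 CpG, the Clec12a promoter had 37.2% GC with 3 CpGs, and the Clec2l promoter had 72.4% GC with 21 CpGs. The median GC was 52.4% over all 32851 promoters and 44.4% over the 35 promoters of these genes. On either strand TGACTCA was found in 4.46% of all promoters and in 4 of the 35 (Cd207, Cd209f, Cd209g and Clec2g). GGAAGT, the core bound by ETS factors such as PU.1, was in 19.7% of all and 6 of 35, and TATAAA was in 12.4% of all and 10 of 35. These motifs were chosen after the promoters had been read, and a match is a description of the letters.

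The pathogen receptors of dendritic cells and macrophages were 16 genes, all tested, of which 2 (Cd207 and Clec4e) were higher and 0 lower at unadjusted p under 0.05. Of all genes, 17.6% were higher and 13.1% lower, and of those under 1 TPM 34.7% were higher. The median log2 fold change of the 16 was 0.79. Clec4e (Mincle, ENSMUSG00000030142.10, chr6:123281789-123289870, minus strand), which recognises a glycolipid of mycobacteria and signals through Fcer1g, had 4, 4 and 7 counts in Cx-6 against 18, 22 and 15 in Cx-24. All 24-month values were higher, with a log2 fold change of 1.81 (SE 0.39, adjusted p = 0.0522). At the sensory receptor density Clec4e would have had 3.42, 4.13 and 4.07 counts in Cx-6 against 13.8, 12.4 and 8.99 in Cx-24. With that density subtracted its unadjusted p was 0.046, which is a description only. Its neighbours in a block of 9 Clec4 genes (chr6:122921848-123289870) include Clec4n (Dectin-2, a receptor for fungal mannans), which had 6, 16 and 16 against 15, 35 and 16 counts, and Clec4d, which had 2, 2 and 3 against 7, 7 and 1. Both overlapped between the ages, and Clec4e was the single gene of that block with an unadjusted p under 0.05. Clec5a, an activating myeloid receptor that pairs with Tyrobp, had 131, 130 and 145 counts against 168, 134 and 145 (log2 fold change 0.10, adjusted p = 0.717). Clec10a, a galactose-binding lectin of macrophages, had 23, 20 and 23 against 17, 31 and 20.

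The Cd209 genes, homologues of the dendritic cell receptor DC-SIGN, were followed by their mouse-to-mouse spread. None of the 7 had an unadjusted p under 0.05. Cd209a (ENSMUSG00000031494.7, chr8:3743397-3748984, minus strand) was the highest with 54, 99 and 146 counts against 85, 176 and 94. Its libraries overlapped, and the log2 fold change was 0.21 (SE 0.35, adjusted p = 0.714), turning to -0.06 without mouse 10 and to -0.12 without mouse 4. The sum over the 7 genes was 3.66, 5.53 and 8.46 CPM in mice 10, 11 and 17, and 6.29, 11.3 and 5.58 CPM in mice 2, 4 and 5. Mouse 17 was the highest 6-month mouse for 6 of the 7 genes, and mouse 4 the highest 24-month mouse for 4. Markers of border macrophages, the macrophages of meninges and vessel sheaths (8 genes, Mrc1 and Lyve1 among them), summed to 14.4, 17.6 and 22.8 CPM against 15.3, 26.0 and 16.1 CPM. Markers of meningeal fibroblasts (8 genes) summed to 313.8, 543.5 and 885.1 CPM against 264.9, 722.5 and 430.0 CPM. All 3 sums were highest in mouse 17 at 6 months and in mouse 4 at 24 months; the part of meningeal tissue in the Cd209 levels was not tested. As paralogs, the Cd209 genes can share reads, and their single values are uncertain for that reason.

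**Figure D3:**
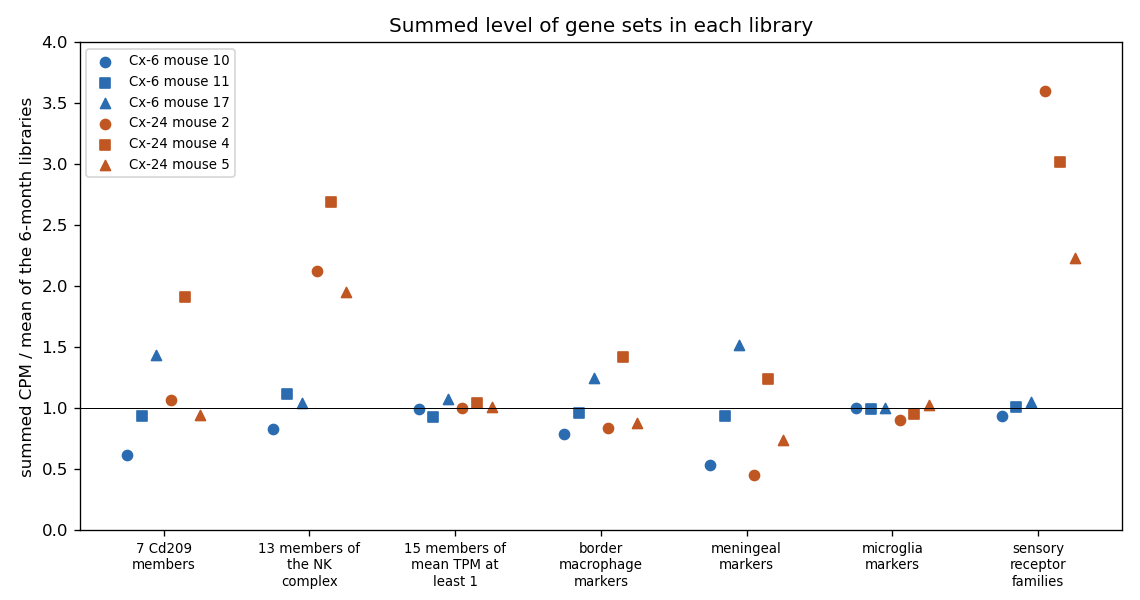
Summed CPM of 7 gene sets in each library, divided by the mean of the 6-month libraries (y axis, which starts at 0), blue for 6 months and orange for 24 months. Cd209 genes, border macrophage markers and meningeal markers are each highest in mouse 17 at 6 months and mouse 4 at 24 months, the NK complex genes and the sensory receptor families do not overlap between the ages, and the sum of the 15 genes of at least 1 TPM stays close to 1.

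Inhibitory receptors and receptors of other cells were 11 genes, of which 10 were tested, 2 were higher (Clec12a and Clec1b) and 0 lower at unadjusted p under 0.05. The background was again 17.6% higher and 13.1% lower over all genes, and 34.7% higher under 1 TPM. The median log2 fold change of the 10 was 0.75. Clec12a (ENSMUSG00000053063.11, chr6:129342691-129365303, plus strand), an inhibitory myeloid receptor that binds uric acid crystals, had 5, 5 and 4 counts in Cx-6 against 17, 23 and 13 in Cx-24. All 24-month values were higher, with a log2 fold change of 1.85 (SE 0.40, adjusted p = 0.0519). At the sensory receptor density a gene of this length would have had 3.80, 4.60 and 4.53 counts in Cx-6 against 15.4, 13.8 and 10.0 in Cx-24. Once that density was subtracted, with results below 0 set to 0, the unadjusted p was 0.0245, which is a description only. Clec1b (CLEC-2, ENSMUSG00000030159.15, chr6:129397297-129409335, plus strand), the platelet receptor for podoplanin, had 4, 7 and 4 counts against 16, 31 and 13. The ages did not overlap (log2 fold change 1.93, SE 0.46, adjusted p = 0.0552). With the density subtracted the unadjusted p was 0.053, which is a description only as well. Clec1b shares 184 exonic bases on the same strand with Clec9a, a dendritic cell receptor for exposed actin filaments, which had 3, 5 and 6 counts against 12, 8 and 8, so their reads can be mixed. Summed over 8 platelet markers the level was 8.37 to 9.68 CPM at 6 months and 10.0 to 10.7 CPM at 24 months, and the part of platelets in the Clec1b reads was not tested. Clec14a (ENSMUSG00000045930.3, chr12:58264720-58269290, minus strand), an endothelial receptor, had 139, 201 and 207 counts against 138, 236 and 212 (log2 fold change 0.06, SE 0.21, adjusted p = 0.876). In the Clec4a group, Clec4a2 had 16, 21 and 21 counts against 19, 27 and 21, and Clec4a3 had 40, 34 and 43 against 48, 51 and 36. Both overlapped between the ages. Clec4a1, which did not overlap, had 12, 13 and 16 against 24, 23 and 19 (log2 fold change 0.64, adjusted p = 0.168), and Clec4a4 was not tested.

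The Clec2 genes were 9, of which 6 were higher (Clec2h, Clec2i, Clec2g, Clec2e, Clec2j and Clec2f) and 0 lower at unadjusted p under 0.05, with a median log2 fold change of 1.65. All but Clec2l and Clec2f lay under 1 TPM, where 34.7% of all genes were higher, and Clec2h and Clec2j passed the filter on summed counts through their 24-month reads. Clec2i had 4, 4 and 5 counts in Cx-6 against 11, 20 and 9 in Cx-24 (log2 fold change 1.55, SE 0.46, adjusted p = 0.0709). Clec2g had 1, 4 and 5 against 12, 9 and 12 (1.65, SE 0.51, adjusted p = 0.0771), and Clec2e had 2, 2 and 3 against 7, 9 and 6 (1.56, SE 0.52, adjusted p = 0.0871). In these 3 genes the ages did not overlap. Clec2h had 1, 0 and 2 against 12, 6 and 5, a ratio of 7.44 (95% counting interval 2.25 to 38.7, adjusted p = 0.0678). The pseudogene Clec2j had 1, 0 and 0 against 4, 1 and 4, a ratio of 8.74 (95% counting interval 1.21 to 382.9, adjusted p = 0.135), and its libraries overlapped. The pseudogene Clec2f had 0, 6 and 3 against 14, 13 and 5 (log2 fold change 1.76, SE 0.72, adjusted p = 0.137), with overlap as well. With the density subtracted, 5 of the 9 were left to test and 0 had an unadjusted p under 0.05. These genes are paralogs and some reads may fit several of them.

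**Figure D4:**
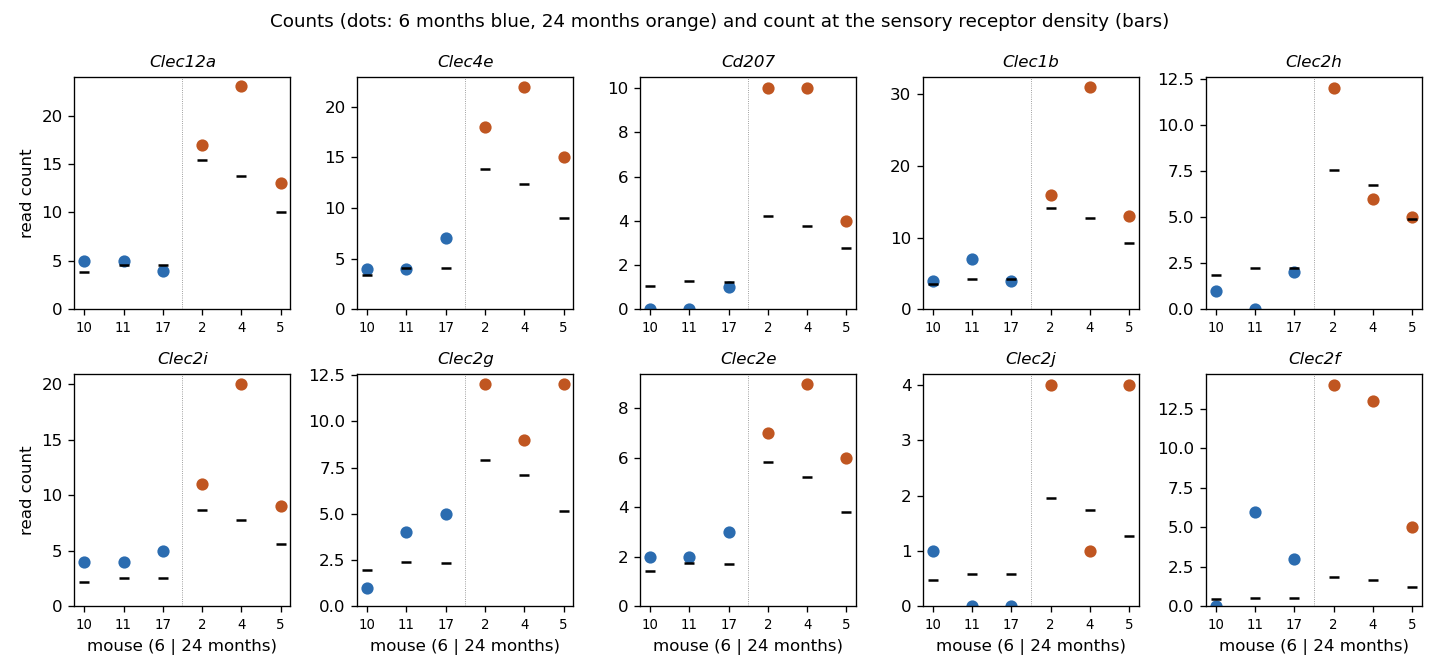
Read counts in the 6 mice for the 10 genes whose unadjusted p was under 0.05 (dots, blue for 6 months and orange for 24 months), 1 panel per gene, each with its own y axis from 0, and the count expected at the sensory receptor density (black bars). Cd207 goes from 0, 0 and 1 to 10, 10 and 4 reads, and the black bars are higher at 24 months in every panel.

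Clec2l stood apart from the rest of its family in level and position. It is known from the brain, lies outside the NK gene complex (ENSMUSG00000079598.4, chr6:38663069-38680864, plus strand) and was the highest of all 41 genes. Its counts were 286, 401 and 425 at 6 months and 321, 383 and 406 at 24 months, or 26.5 ± 4.51 TPM against 27.8 ± 2.58 TPM (SD, n = 3). The ages overlapped, with a log2 fold change of -0.04 (SE 0.15, adjusted p = 0.871) that was 0.15 with library totals.

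The NK gene complex held 13 of the 41 genes, namely the Clec2 genes other than Clec2l with Clec12a, Clec12b, Clec1b, Clec9a and Clec1a. From the first to the last of these 13 they span chr6:128652416-129452000. Their sum was 1.95, 2.61 and 2.44 CPM at 6 months and 4.96, 6.27 and 4.55 CPM at 24 months, a fold of 2.26, which may be set beside the 2.95 of the sensory receptor density. Of the 13, 8 were higher and 0 lower at unadjusted p under 0.05, where 17.6% of all genes and 34.7% of those under 1 TPM were higher, and after subtraction of that density this was 1 of the 8 still tested, Clec12a. The block of 8 genes on chromosome 8 (chr8:3707064-4137707, the Cd209 genes and Clec4g) held 0 such genes; the difference between the blocks was not tested. Clec4g, a receptor of liver sinusoidal endothelium, had 7, 4 and 6 counts against 13, 12 and 7 and shares 146 exonic bases with Gm16553 on the opposite strand, which this library kit does not tell apart.

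Secreted and other proteins with the Clec name were 5 genes, of which 4 were tested and 0 had an unadjusted p under 0.05. Clec16a (ENSMUSG00000068663.14, chr16:10545339-10744878, plus strand), a cytoplasmic regulator of mitophagy, had 1291, 1135 and 1272 counts against 1017, 1127 and 1371. The log2 fold change was -0.12 (SE 0.13, adjusted p = 0.547) and 0.07 with library totals. Clec11a (ENSMUSG00000004473.10, chr7:44302687-44306902, minus strand), a secreted growth factor of bone and blood progenitors, had 316, 303 and 318 counts against 266, 283 and 276. All scaled 24-month values were lower, with a log2 fold change of -0.23 (SE 0.13, adjusted p = 0.235) that was -0.04 with library totals. Clec18a (ENSMUSG00000033633.14, chr8:111058920-111092426, minus strand), a secreted lectin, had 250, 262 and 266 counts against 546, 348 and 218. Its 6-month mice were alike and the 24-month mice spread from below to above them (log2 fold change 0.48, SE 0.28, adjusted p = 0.267). The value was 0.064 without mouse 2 and 0.76 without mouse 5 (adjusted p = 0.0475). Clec3b, the plasma protein tetranectin, had 16, 20 and 30 counts against 20, 31 and 20.

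Other proteins with a C-type lectin domain were 31 genes outside the rule, of which 12 were higher and 0 lower at unadjusted p under 0.05, where 17.6% of all genes and 34.7% of those under 1 TPM were higher. Selp, the P-selectin of platelets and endothelium, had 0, 1 and 1 counts against 13, 10 and 5 (adjusted p = 0.0526). Selp, which is among the 12 higher genes, passed the filter on summed counts through its reads at the older age. Its adjusted p is therefore a description only. The members of highest TPM had values below 0: Cd302, an endocytic receptor, had a log2 fold change of -0.26 and Thbd, thrombomodulin of endothelium, of -0.30, with adjusted p-values of 0.264 and 0.458. With the sensory receptor density subtracted, 1 of the 20 still tested was higher at unadjusted p under 0.05, where 3.61% of all genes were, and among the C-type lectin genes 3 of 30 were (Cd207, Clec4e and Clec12a). Counts below the density had been set to 0, and the fitted log2 fold changes of these 3 were larger than before (5.14, 2.17 and 3.33). Their p-values after subtraction are a description only.

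Genes of lectin receptor signalling numbered 28, of which 1 was higher and 3 lower at unadjusted p under 0.05. Of all genes, 17.6% were higher and 13.1% lower, so neither count lay above that background. Bcl10, the partner of Card9 and Malt1, had 629, 792 and 619 counts against 553, 568 and 533 (log2 fold change -0.34, adjusted p = 0.0904). Pik3cd, a subunit of a lipid kinase of leukocytes, was also among the lower genes (log2 fold change -0.26), and the higher gene was Ptpn6 (0.34); both were named after their values were seen. With library totals 7 of the 28 were higher and 0 lower. The adaptor Tyrobp, with 322, 356 and 408 counts against 383, 378 and 415, and the phosphatase Ptpn11 had log2 fold changes of 0.07 and -0.18 (adjusted p = 0.726 and 0.27). Microglia markers (10 genes) summed to 505.3 to 511.5 CPM at 6 months and 461.9 to 523.6 CPM at 24 months, with overlap. Markers of monocytes and neutrophils (8 genes) summed to 1.56 to 1.95 CPM against 2.34 to 4.13 CPM, without overlap. Those sums rested on 48, 60 and 64 reads against 76, 143 and 126, a fold of 1.94. The summed level of all tested genes under 1 TPM had a fold of 1.72. Summed endothelial markers (8 genes) were 164.4 to 182.2 CPM against 115.3 to 212.0 CPM, those of choroid plexus (8 genes) 18.2 to 45.3 CPM against 21.9 to 45.1 CPM, and those of red blood cells (5 genes) 77.0 to 98.4 CPM against 57.0 to 80.1 CPM; all 3 overlapped between the ages. The part of any of these cells in the values above was not tested.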

How the data were processed

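The authors trimmed reads of 75 bp with Trim Galore 0.6.4, mapped them to GRCm38 with STAR 2.7.3a and counted them on exons with featureCounts (Subread 2.0.0). They deposited whole-number counts per gene, used here as they are, and TPM values made from counts and gene length, used for levels. The stated options count reads of several positions in fractions, yet the deposited counts are whole, so how reads of the Cd209 and Clec2 paralogs were counted is not known. Positions come from GENCODE vM21 (55240 of 55421 identifiers found). Differential expression was computed with edgeR 4.0.16 in R 4.3.3 (TMM, summed count of at least 10, quasi-likelihood test, no covariates, FDR over all genes tested), with DESeq2 1.42.0, other edgeR tests, scalings and filters and each mouse left out as alternatives. The sensory receptor density times gene length was subtracted from counts in 1 alternative, where results were rounded and those below 0 were set to 0. Ratios carry exact binomial intervals. The members and lists were chosen with earlier results of these data known. Named were Cd207, members with an unadjusted p under 0.05, the 6 of highest TPM and, from other lists, the genes of smallest p and highest TPM; some such genes are not reported here, and others were picked to describe a group after their values were seen. The labels do not state pooling of animals or a batch. Mice are the replicates.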

Additional observations from a re-analysis of the deposited data

How the results depend on the processing

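At 1% FDR, 0 C-type lectin genes were called with the quasi-likelihood test, 5 with the likelihood ratio test and 4 with the exact test of edgeR; leaving out any mouse kept 0. At 10% FDR the 8 genes became 3 with DESeq2, 3 with filterByExpr and 0 after subtraction of the sensory receptor density, and 0 to 12 when a mouse was left out. The 10 genes higher at unadjusted p under 0.05 became 18 with library totals, 6 with filterByExpr and 3 after subtraction, and 8 to 16 when a mouse was left out (16 without mouse 5). Of other lectin-domain proteins, the 12 higher became 6 with filterByExpr and 1 after subtraction (8 to 11 without a mouse), and 0 to 2 were lower without a mouse. Of signalling genes, the 1 higher became 0 with the likelihood ratio and exact tests, DESeq2 and subtraction, 7 with library totals, 5 with filterByExpr and 2 with no filter (0 to 2 without a mouse), and the 3 lower became 0 with library totals and filterByExpr (0 to 4 without a mouse). Cd207, at a log2 fold change of 4.11, passed 1% FDR with the likelihood ratio and exact tests and ranged from 3.67 to 6.01 without a mouse; it was not tested under filterByExpr. Directions turned for Clec2l (0.15 with library totals, 0.070 with filterByExpr, 0.02 without mouse 11, 0.071 without mouse 17 and 0.04 without mouse 2; range without a mouse -0.16 to 0.071), Clec16a (0.066 with library totals), Cd209a (-0.06 without mouse 10, -0.12 without mouse 4; range to 0.59) and Clec14a (-0.071 without mouse 10, -0.04 without mouse 4; range to 0.24). The cause was not tested. DESeq2 gave no adjusted p for 11486 genes, which stayed out of its counts. No paired analysis was possible because the ages share no replicate numbers. Counts of a few reads limit the precision of most genes below 1 TPM.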
